A study of Mus musculus with 9 samples.

Results

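The blood cytokine receptor genes considered here are Csf2ra, Csf2rb, Csf2rb2, Csf3r, Il3ra, Il6ra, Il7r, Il2rg and Epor, which encode chains of the receptors through which progenitor and myeloid cells read growth factors. Members were all probe sets of the array whose only gene symbol in the platform annotation is 1 of these 9. There were 12 such probe sets, of 45101 in all, for 8 of the 9 genes, of 18194 genes with a single-symbol probe set. Csf2ra, Csf2rb, Il6ra and Il7r had 2 probe sets each, and Csf2rb2, Csf3r, Il3ra and Epor had 1. No probe set carried the single symbol Il2rg in that annotation, so this gene was not analysed here, and 1 further probe set that names Csf2rb2 together with Csf2rb was left out.

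The arrays came from bone marrow of leukemic mice of C57/BL6 X 129 background, with 3 arrays in each of 3 groups. Af10 deleted (CRE) and Af10 floxed (MIT) leukemias both started from primary MLL-AF9 leukemias homozygous for a floxed allele of Af10, a gene listed on the array as Mllt10. These were transduced with a tdTomato vector (MSCV-IRES-tdTomato, MIT) that was empty in the floxed group and carried Cre recombinase in the deleted group, passed to secondary recipients, and sorted for tdTomato. Hoxa9-Meis1 leukemias were primary leukemias made by transducing both genes, and their cells were not sorted or treated. The sources used here give no age, sex or transformed cell type. Cre, which the floxed group lacked, and the loss of Af10 cannot be told apart. Against Hoxa9-Meis1 leukemias, oncogene, transplant generation, vector, sorting and the Af10 allele cannot be told apart. The labels do not say that each array is a separate mouse or primary leukemia, so p-values reflect only how far these samples spread, and that spread may be technical. In such bulk RNA, fewer cells of a type and less RNA per cell cannot be told apart.

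Type I cytokine receptors have no kinase of their own. A ligand brings receptor chains together, the JAK kinases bound to them phosphorylate the chains and the STAT factors that dock there, and the STATs switch on genes that include inhibitors of the same pathway. GM-CSF and IL-3 act through a chain of their own (Csf2ra, Il3ra) joined to the common beta chain, and G-CSF, read by Csf3r, drives neutrophil production. Il7r is known for its part in lymphoid progenitors, and Epor in erythroid ones.

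Promoters of Csf2ra, Csf3r and Il7r are shown because these 3 genes had the largest differences between deleted and floxed leukemias among the members. The sequences are RefSeq's for assembly GRCm38.p6, 250 bases before to 50 after the start, read 5′ to 3′ along the gene. Capitals mark matches, on either strand, to GAGGAA (core of sites bound by PU.1), GGAAGT (core of ETS family sites, which can share its GGAA with the first motif) and TTNNGNAA (core of C/EBP sites). They lie at chr19:61228369-61228668 (Csf2ra, minus strand), chr4:126024409-126024708 (Csf3r, plus strand) and chr15:9529827-9530126 (Il7r, minus strand).
Csf2ra: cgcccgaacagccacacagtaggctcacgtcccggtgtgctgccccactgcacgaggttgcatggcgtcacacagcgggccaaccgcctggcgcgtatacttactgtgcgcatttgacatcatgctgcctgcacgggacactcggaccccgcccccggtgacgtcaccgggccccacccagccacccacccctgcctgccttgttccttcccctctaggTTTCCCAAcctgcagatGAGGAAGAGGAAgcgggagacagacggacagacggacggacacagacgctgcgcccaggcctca
Csf3r: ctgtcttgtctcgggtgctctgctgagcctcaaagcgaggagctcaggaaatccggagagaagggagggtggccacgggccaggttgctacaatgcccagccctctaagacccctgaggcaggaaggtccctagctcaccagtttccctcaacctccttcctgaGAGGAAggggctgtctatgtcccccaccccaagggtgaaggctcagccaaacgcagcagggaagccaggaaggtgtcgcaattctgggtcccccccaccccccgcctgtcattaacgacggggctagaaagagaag
Il7r: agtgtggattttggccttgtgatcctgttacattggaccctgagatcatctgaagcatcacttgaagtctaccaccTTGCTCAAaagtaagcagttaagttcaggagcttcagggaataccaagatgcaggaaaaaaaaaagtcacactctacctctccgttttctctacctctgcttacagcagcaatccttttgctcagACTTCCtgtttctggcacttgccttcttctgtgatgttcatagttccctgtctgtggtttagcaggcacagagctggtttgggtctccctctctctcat

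The Csf2ra promoter held GAGGAA at 14 and at 8 bases before the start and TTNNGNAA at 31 bases before it. The Csf3r promoter held GAGGAA at 86 bases before the start. The Il7r promoter held GGAAGT at 49 and TTNNGNAA at 174 bases before the start, and no GAGGAA in this window. Of 8 member promoters in the table, which has none for Csf2rb, 4 held GAGGAA, 4 held GGAAGT and 5 held TTNNGNAA, against 28.3%, 23.8% and 40.7% of all 32851 promoters of that length. These matches describe letters and are not evidence of binding.

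The arrays were alike in brightness, with a median intensity of 146 to 156. Correlations of log2 values across probe sets were 0.98 to 0.99 within groups and 0.94 to 0.97 between them. In Gapdh, the control for RNA integrity, the 3′ probe set exceeded the 5′ one by 1.03 (log2) on floxed replicate 5 and by 0.44 to 0.81 elsewhere. All 4 Mllt10 probe sets fell in deleted leukemias, by 0.76 to 1.05 on the log2 scale (limma adjusted p = 0.00105 to 0.0328), with no overlap between groups and with signal left on every deleted array. Which exons are floxed is not stated in the labels. None of the 12 measured myeloid blast markers lay on all arrays of any group in the background range, which was taken as 2.97 to 4.71 (log2), the span of 9 Y-linked probe sets (Uty, Kdm5d and Eif2s3y). The lowest value of any receptor probe set was 5.24, above that range. Background can differ between probe sets, so a value above the range does not show that a gene was expressed. Whether Epor, or Il7r outside the floxed group, was expressed was not tested. Values below are log2(intensity + 1), ± is SD over 3 arrays, and SE belongs to the fitted difference. Levels are compared between groups for 1 probe set and never between probe sets. A call means that limma's p, adjusted over all 45101 probe sets, was under 0.05.

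**Figure D1:**
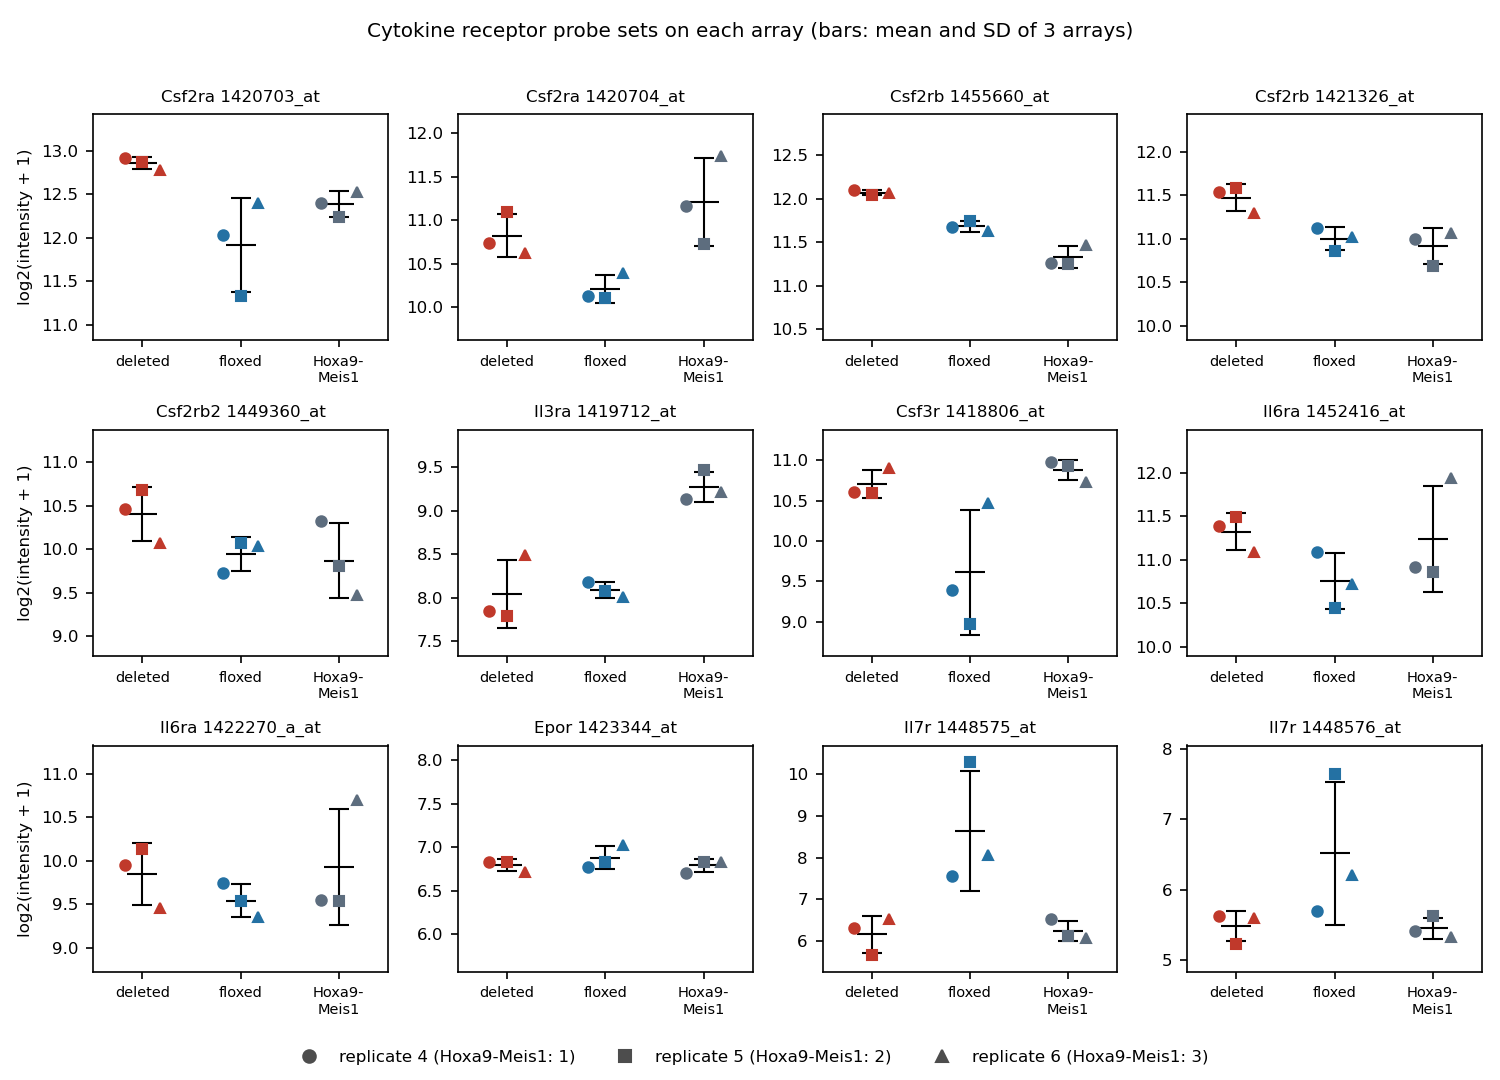
Each panel plots 1 probe set, with log2(intensity + 1) on the vertical axis (scaled per panel) and the 3 groups on the horizontal axis. Points are arrays, and bars are the mean and SD of 3 arrays. The floxed arrays are lowest for Csf3r and highest for Il7r, floxed replicate 5 is the extreme array in both, and all 3 Hoxa9-Meis1 arrays are highest for Il3ra.

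Csf2ra encodes the alpha chain that binds GM-CSF. Its brighter probe set, 1420703_at, read 12.92, 12.87 and 12.78 on deleted replicates 4 to 6, 12.04, 11.33 and 12.40 on floxed replicates 4 to 6, and 12.40, 12.24 and 12.53 on Hoxa9-Meis1 replicates 1 to 3. Every deleted array lay above every floxed and every Hoxa9-Meis1 array, while the floxed and Hoxa9-Meis1 arrays overlapped. The deleted mean exceeded the floxed mean by 0.93 (SE 0.24, 95% interval 0.40 to 1.47, 1.91-fold), which just missed the threshold (limma adjusted p = 0.052). It passed without floxed replicate 6 (1.17, limma adjusted p = 0.0187), and without floxed replicate 5 the difference was 0.64 (limma adjusted p = 0.0709). Neither difference from Hoxa9-Meis1 leukemias passed (limma adjusted p = 0.239 for deleted and 0.273 for floxed).

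The other Csf2ra probe set, 1420704_at, read 10.74, 11.10 and 10.62 in deleted, 10.13, 10.11 and 10.40 in floxed and 11.16, 10.73 and 11.73 in Hoxa9-Meis1 leukemias. The floxed arrays were the lowest 3 and overlapped neither other group. Here the floxed level lay 0.997 below the Hoxa9-Meis1 level (SE 0.24, 1.996-fold, limma adjusted p = 0.0362), and this call was made. It ended without deleted replicate 4, any floxed replicate, or Hoxa9-Meis1 replicate 1 or 3 (limma adjusted p = 0.0555 to 0.106). The deleted minus floxed difference was 0.61 (limma adjusted p = 0.188). The pair of Csf2ra probe sets thus ordered the groups differently at the top: deleted leukemias stood highest at 1420703_at and Hoxa9-Meis1 leukemias at 1420704_at, with the floxed mean lowest at both.

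Il3ra encodes the alpha chain that binds IL-3. Its probe set read 7.84, 7.79 and 8.49 in deleted, 8.19, 8.07 and 8.01 in floxed and 9.13, 9.47 and 9.22 in Hoxa9-Meis1 leukemias. All Hoxa9-Meis1 arrays stood above all MLL-AF9 arrays, and the MLL-AF9 groups overlapped. Il3ra was lower in floxed than in Hoxa9-Meis1 leukemias by 1.18 (SE 0.19, 2.27-fold, limma adjusted p = 0.00702). It was lower in deleted than in Hoxa9-Meis1 leukemias by 1.23 (2.35-fold, limma adjusted p = 0.00351). Both calls held under every alternative run. Deleted minus floxed was -0.05 with a 95% interval of -0.48 to 0.39 (limma adjusted p = 0.915). With 3 arrays a group, differences inside that interval could not be told apart.

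Csf2rb encodes the beta chain shared by the GM-CSF, IL-3 and IL-5 receptors. Its brighter probe set, 1455660_at, read 12.09, 12.04 and 12.07 in deleted, 11.68, 11.74 and 11.62 in floxed and 11.26, 11.25 and 11.47 in Hoxa9-Meis1 leukemias. No 2 groups overlapped, in the order deleted, floxed, Hoxa9-Meis1. The ends of that order were called, with the deleted level 0.74 above Hoxa9-Meis1 (SE 0.11, 1.67-fold, limma adjusted p = 0.00241), under every alternative run. Neither neighbouring step passed: deleted minus floxed was 0.38 (95% interval 0.15 to 0.62, limma adjusted p = 0.0702) and floxed minus Hoxa9-Meis1 was 0.35 (limma adjusted p = 0.0743).

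The second Csf2rb probe set, 1421326_at, read 11.54, 11.58 and 11.29 in deleted, 11.13, 10.86 and 11.02 in floxed and 11.001, 10.69 and 11.06 in Hoxa9-Meis1 leukemias. Deleted arrays were again the highest, and the floxed and Hoxa9-Meis1 arrays overlapped. The deleted level exceeded Hoxa9-Meis1 by 0.55 (1.47-fold, limma adjusted p = 0.0326), a call that ended without deleted replicate 4 or 5 or Hoxa9-Meis1 replicate 1 or 2 (limma adjusted p = 0.0706 to 0.114) and after a second quantile normalization (0.0575). Deleted minus floxed was 0.47 (limma adjusted p = 0.0967).

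Csf2rb2 encodes a mouse beta chain that serves only the IL-3 receptor and is nearly identical in sequence to Csf2rb, so signal at either gene's probe sets can come from both. It read 10.47, 10.68 and 10.07 in deleted, 9.73, 10.07 and 10.04 in floxed and 10.33, 9.81 and 9.47 in Hoxa9-Meis1 leukemias, and all 3 groups overlapped. Deleted minus floxed was 0.46 (95% interval -0.07 to 0.99, limma adjusted p = 0.301), and no comparison passed.

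Csf3r encodes the G-CSF receptor. It read 10.61, 10.59 and 10.90 in deleted, 9.39, 8.98 and 10.47 in floxed and 10.98, 10.93 and 10.73 in Hoxa9-Meis1 leukemias. The floxed arrays were lowest and most spread (9.61 ± 0.77, against 10.70 ± 0.17 in deleted and 10.88 ± 0.13 in Hoxa9-Meis1 leukemias), and they overlapped neither other group, whereas the latter 2 overlapped. Csf3r was lower in floxed than in Hoxa9-Meis1 leukemias by 1.27 (SE 0.32, 2.40-fold, limma adjusted p = 0.0419). That call ended when any array other than floxed replicate 6 was left out (limma adjusted p = 0.0525 to 0.136 in those 8 fits). The deleted level exceeded the floxed level by 1.09 (SE 0.32, 95% interval 0.36 to 1.81, 2.12-fold) and missed the threshold (limma adjusted p = 0.0879). Without floxed replicate 6, the floxed array nearest the deleted ones, the difference was 1.52 and passed (limma adjusted p = 0.0036), and without floxed replicate 5 it was 0.77 (limma adjusted p = 0.243). Deleted minus Hoxa9-Meis1 was -0.18 (limma adjusted p = 0.779).

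Marker sums were set beside the low Csf2ra and Csf3r values of floxed replicate 5. The summed intensity of 11 neutrophil maturation markers was 76360 on that array, 117000 and 123500 on floxed replicates 4 and 6, 107800 to 138400 in deleted and 74820 to 116200 in Hoxa9-Meis1 leukemias. The lowest of these sums, 74820, was on Hoxa9-Meis1 replicate 2, where Csf3r read 10.93 and Csf2ra 1420703_at 12.24. That rank rests on 1 marker, Chil3: without it the lowest sum was 63500 on floxed replicate 5, against 71700 on Hoxa9-Meis1 replicate 2. The sum of 12 myeloid blast markers was lowest on floxed replicate 5, at 58130. It was 74060 and 79900 on the other floxed arrays, 79390 to 86610 in deleted and 76970 to 87440 in Hoxa9-Meis1 leukemias. Floxed replicate 5 also had the largest excess of the 3′ over the 5′ Gapdh probe set, 1.03 (log2). The parts of cell composition and RNA integrity in these receptor levels were not tested.

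Il6ra encodes the chain that binds IL-6, which signals through the gp130 chain of Il6st. Its brighter probe set, 1452416_at, read 11.38, 11.49 and 11.08 in deleted, 11.09, 10.45 and 10.72 in floxed and 10.92, 10.85 and 11.94 in Hoxa9-Meis1 leukemias. The other, 1422270_a_at, read 9.95, 10.14 and 9.45, then 9.74, 9.53 and 9.35, then 9.55, 9.54 and 10.69 in the same order. The groups overlapped at both, and Hoxa9-Meis1 replicate 3 was the highest array at both. None of the 3 comparisons passed at either, and the largest difference, deleted minus floxed at 1452416_at, was 0.57 (limma adjusted p = 0.30). The summed intensity of 13 monocyte and macrophage markers was 41460 on Hoxa9-Meis1 replicate 3, against 25220 and 21960 on the other 2 arrays of that group, and its part in the Il6ra level was not tested.

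Epor encodes the erythropoietin receptor. It read 6.84, 6.84 and 6.72 in deleted, 6.77, 6.84 and 7.03 in floxed and 6.71, 6.84 and 6.84 in Hoxa9-Meis1 leukemias. It spanned 0.32 over the 9 arrays, the least of the 12 probe sets, and the 95% intervals of its 3 differences lay between -0.34 and 0.34. No comparison passed.

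Il7r encodes the alpha chain of the IL-7 receptor, which works with the common gamma chain of Il2rg. Its brighter probe set, 1448575_at, read 6.31, 5.67 and 6.52 in deleted, 7.57, 10.29 and 8.06 in floxed and 6.53, 6.13 and 6.08 in Hoxa9-Meis1 leukemias. All floxed arrays lay above all others, floxed replicate 5 by far the most, and the deleted and Hoxa9-Meis1 arrays overlapped. Il7r fell in deleted against floxed leukemias by 2.48 on the log2 scale (SE 0.60, 95% interval -3.83 to -1.12, 5.56-fold, limma adjusted p = 0.0448). It was higher in floxed than in Hoxa9-Meis1 leukemias by 2.40 (5.26-fold, limma adjusted p = 0.0396). Deleted minus Hoxa9-Meis1 was -0.08 (limma adjusted p = 0.952).

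Both Il7r calls lay close to the threshold. Without floxed replicate 5 the deleted minus floxed difference was -1.65 and was still called (limma adjusted p = 0.0247), and without floxed replicate 4 it was -3.01 (limma adjusted p = 0.0254). The call ended without floxed replicate 6, any deleted replicate or any Hoxa9-Meis1 replicate (limma adjusted p = 0.0528 to 0.125), and the call against Hoxa9-Meis1 leukemias ended without the same 7 arrays (0.0503 to 0.116). The dimmer probe set, 1448576_at, read 5.62, 5.24 and 5.60 in deleted, 5.69, 7.65 and 6.22 in floxed and 5.41, 5.62 and 5.33 in Hoxa9-Meis1 leukemias. Its floxed arrays were also above all others, floxed replicate 4 by little, and it did not pass (deleted minus floxed -1.03, limma adjusted p = 0.189; floxed minus Hoxa9-Meis1 1.06, limma adjusted p = 0.155).

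Lymphoid markers were set beside Il7r. The summed intensity of 14 B-lineage markers was 3405 to 4133 in floxed, 2389 to 2567 in deleted and 1736 to 3089 in Hoxa9-Meis1 leukemias. The gap between floxed and deleted leukemias rests on 1 marker, Vpreb1. Without it the sums were 2145 to 2711 in floxed, 1997 to 2401 in deleted and 1640 to 1831 in Hoxa9-Meis1 leukemias. The floxed and deleted arrays then overlapped, and the floxed arrays stayed above the Hoxa9-Meis1 arrays. The sum of 14 T and NK markers was highest on floxed replicate 5 at 3024, against 2218 and 2233 on the other floxed arrays, 2337 to 2554 in deleted and 2013 to 2360 in Hoxa9-Meis1 leukemias. This peak also rests on 1 marker, Cd247: without it the sum was 1098 on floxed replicate 5, the lowest of the 9 arrays, 1189 and 1126 on the other floxed arrays, 1488 to 1521 in deleted and 1187 to 1517 in Hoxa9-Meis1 leukemias. Of the B-lineage markers 1 of 14 fell in deleted against floxed leukemias (Cd79b, by 0.75 on the log2 scale, limma adjusted p = 0.00613) and none rose. At an unadjusted limma p under 0.05, 5 of them were higher and 4 lower, and the list's median difference was 0.20, against 0.06 over all genes. At that unadjusted p, 8 of the 14 T and NK markers were higher and 1 lower, against 11.9% and 9.67% of all genes. Their median difference was 0.45. Limma called 4 of them higher and 1 lower, against 2.92% and 3.46% of all genes. Gzma (1.56), Klrd1 (1.13), Thy1 (1.07) and Cd3e (0.93) rose and Cd5 (-1.20) fell. Of these 5, Thy1 kept its call only without Hoxa9-Meis1 replicate 2 (limma adjusted p = 0.0501 to 0.117 otherwise), and Klrd1 lost it without deleted replicate 4 or floxed replicate 5 (0.0528 and 0.0597). Klrd1 and Ncr1 were in the background range on all floxed and Hoxa9-Meis1 arrays, and Pou2af1 on all Hoxa9-Meis1 arrays. Gzma was in or close to that range on the floxed arrays, with intensities of 17.07 to 26.97. The part of lymphoid cells in the Il7r level was not tested.

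**Figure D2:**
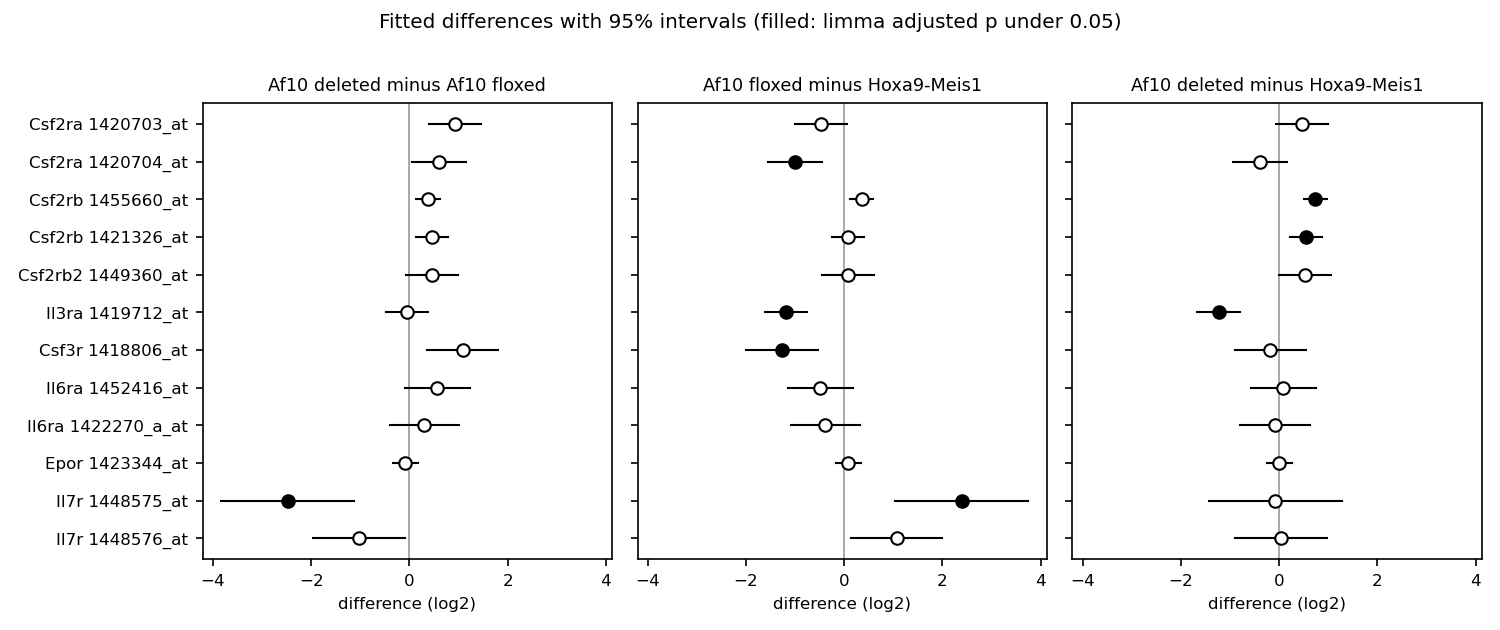
Fitted differences (log2, horizontal axis) of the 12 receptor probe sets (rows) in the 3 comparisons (panels), with 95% intervals. Filled points are limma adjusted p under 0.05: Il7r alone in deleted minus floxed, Csf2ra, Il3ra, Csf3r and Il7r in floxed minus Hoxa9-Meis1, and both Csf2rb probe sets and Il3ra in deleted minus Hoxa9-Meis1.

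Across the 12 receptor probe sets, deleted against floxed leukemias gave 0 called higher and 1 called lower by limma, against 2.4% of all probe sets called higher and 3.76% called lower. At an unadjusted limma p under 0.05, 5 of the 12 were higher (both of Csf2ra, both of Csf2rb, and Csf3r) and 2 lower (both of Il7r), against 10.5% and 11.1% of all probe sets. The same 7 had groups that did not overlap, against 13% of all probe sets apart and higher and 11.8% apart and lower. The median difference was 0.42, against 0.04 over all probe sets. Probe sets of 1 gene share transcripts. Over the 8 genes, 3 were higher and 1 lower at an unadjusted limma p under 0.05. The shares over all genes were 11.9% and 9.67%.

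In floxed against Hoxa9-Meis1 leukemias 1 of the 12 was called higher and 3 lower, against 4.94% and 4.07% of all probe sets, and the median difference was -0.16, against -0.03. In deleted against Hoxa9-Meis1 leukemias 2 were called higher and 1 lower, against 7.19% and 7.82%, with a median of 0.02 in the members and 0.02 over all probe sets. The comparisons share groups, so the opposite signs of Csf3r and of Il7r in deleted minus floxed and floxed minus Hoxa9-Meis1 rest on the same 3 floxed arrays.

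**Figure D3:**
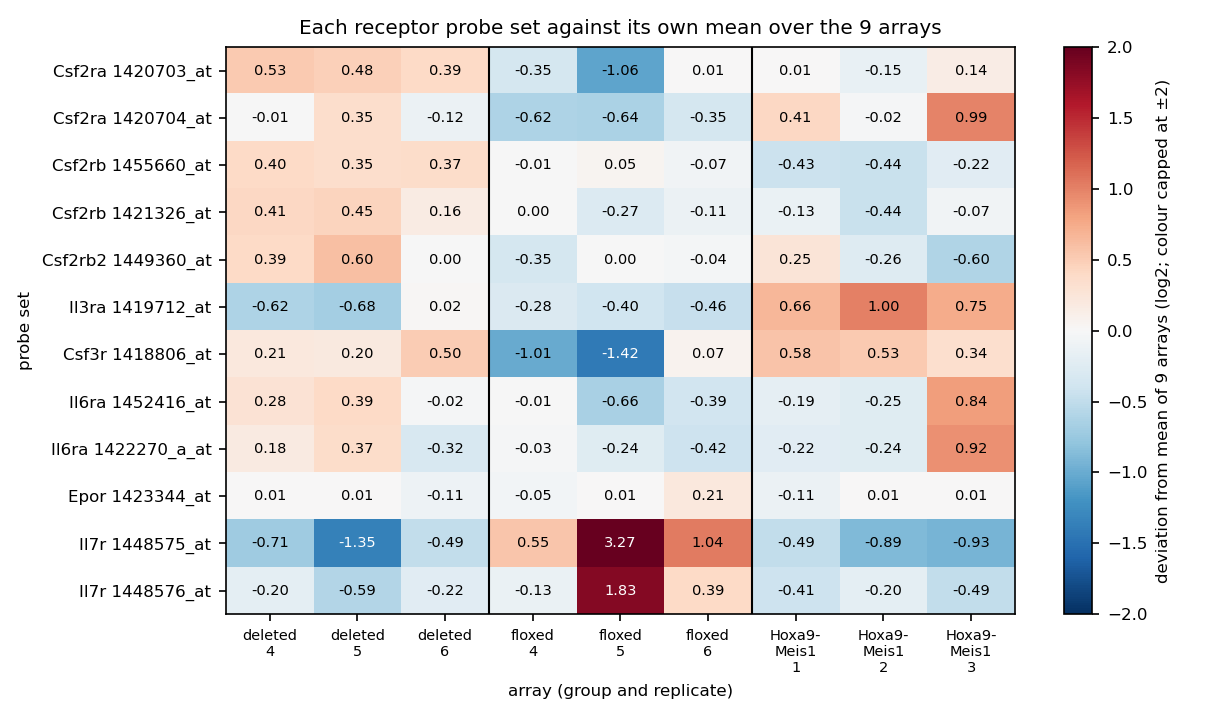
Deviation of each of the 12 probe sets (rows) from its own mean over the 9 arrays (columns, by group and replicate), in log2 units with colour capped at 2 either way. Floxed replicate 5 is at 3.27 for Il7r 1448575_at, -1.42 for Csf3r and -1.06 for Csf2ra 1420703_at.

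Over the 9 arrays, Il7r 1448575_at ran against Csf2ra 1420703_at (Pearson's r = -0.86) and Csf3r (-0.83), and those 2 ran together (0.79). These values describe 9 arrays in 3 groups, with floxed replicate 5 extreme in all 3 probe sets. The pairs of probe sets of 1 gene correlated at 0.96 for Il7r, 0.91 for Il6ra, 0.83 for Csf2rb and 0.56 for Csf2ra. Among all genes, the 3 with the most similar pattern over the 9 arrays were Vps8, Ceacam1 and Cib1 for Csf2ra (r = 0.98 each), Fsip1, Tbc1d8b and Krtap4-2 for Csf3r (0.99, 0.98 and 0.97), and Gm4924, B3galnt1 and Tmem171 for Il7r (0.99, 0.98 and 0.97). For Il3ra they were Dstyk, Ubxn4 and Lipo3 (0.97, 0.96 and 0.96), for Il6ra Fads2b, Myo1g and Efs (0.94, 0.93 and 0.92), and for Csf2rb2 Peg3, Ppp2r2c and Pomgnt1 (0.95, 0.94 and 0.94). Csf2rb and Epor spanned less than 1 and were not searched.

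The rest of the pathway was read from gene lists, each gene by its brightest probe set. The share of all 18194 genes called was 2.92% higher and 3.46% lower in deleted minus floxed, 5.42% and 3.24% in floxed minus Hoxa9-Meis1, and 8.9% and 6.03% in deleted minus Hoxa9-Meis1. At an unadjusted limma p under 0.05 the shares were 11.9% higher and 9.67% lower in deleted minus floxed, and 14.1% and 9.32% in floxed minus Hoxa9-Meis1. Of 18 ligand genes measured of 21 listed, limma called 0 in deleted against floxed leukemias, and 3 were higher and 0 lower at an unadjusted p under 0.05. Osm, which encodes oncostatin M and is itself a STAT target, was lower than in Hoxa9-Meis1 leukemias by 2.17 in floxed and by 2.12 in deleted leukemias (limma adjusted p = 0.00288 and 0.00182), the only ligand called in either.

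Of 31 other cytokine receptor genes measured of 35 listed, 3 rose and 6 fell in deleted against floxed leukemias. Flt3, a receptor tyrosine kinase of early progenitors, read 7.03, 6.98 and 7.57 in deleted, 12.15, 11.77 and 11.35 in floxed and 9.13, 9.83 and 9.47 in Hoxa9-Meis1 leukemias. The 3 groups did not overlap, and Flt3 fell by 4.56 on the log2 scale against floxed leukemias (SE 0.26, limma adjusted p = 4.71e-05). Il31ra, a chain of the IL-31 receptor, averaged 6.79 ± 0.07 with the deletion and 9.69 ± 0.44 without it, so it fell by 2.90 on the log2 scale (limma adjusted p = 0.000612). Il6st, the gp130 chain that Il6ra needs, was at 8.55 ± 0.50 and 11.04 ± 0.44 and fell by 2.49 on the log2 scale (limma adjusted p = 0.0088), while Il6ra itself did not pass. Kit, the receptor tyrosine kinase for stem cell factor, fell by 0.96 on the log2 scale (limma adjusted p = 0.0464), at 1 of its 2 probe sets.

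Il10rb (-0.71), a chain shared by the IL-10 family receptors, and Ifnar2 (-0.61), a chain of the type I interferon receptor, also fell (limma adjusted p = 0.0497 for each), Ifnar2 at 1 of its 3 probe sets. The 3 that rose were Il2rb (1.56, limma adjusted p = 0.00581), the beta chain shared by the IL-2 and IL-15 receptors, Il12rb2 (0.97, limma adjusted p = 0.0272), a chain of the IL-12 receptor, and Il15ra (0.65, limma adjusted p = 0.0356), which binds IL-15. Flt3 and Il31ra held under every alternative run, and Il2rb and Il6st were lost only without both deleted replicate 6 and floxed replicate 5. Kit, Il10rb, Ifnar2, Il15ra and Il12rb2 each lost the call in 5 to 8 of the 9 fits that left out 1 array, with a limma adjusted p of up to 0.162. Il10rb and Ifnar2 kept it only without floxed replicate 4, Il15ra only without deleted replicate 6, Kit only without Hoxa9-Meis1 replicate 2 or 3, and Il12rb2 only without floxed replicate 6 or any Hoxa9-Meis1 replicate. These results are for the brightest probe set of each gene. With all arrays, limma called both probe sets of Il10rb (-1.67 and -0.71) and both of Il15ra (0.65 and 0.93).

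Against Hoxa9-Meis1 leukemias, Flt3 was higher in floxed leukemias by 2.28 (limma adjusted p = 0.00139) and lower in deleted leukemias by the same amount to 2 decimals (-2.28, limma adjusted p = 0.000748). In the floxed comparison 2 receptors were called higher and 0 lower, Il31ra being the other (1.26, limma adjusted p = 0.0225). That second call ended without floxed replicate 5 or 6 or Hoxa9-Meis1 replicate 1 or 2 (limma adjusted p = 0.0538 to 0.0744). In the deleted comparison 2 were called higher and 7 lower, among them Il31ra (-1.64), Il6st (-1.61) and Il10ra (-1.35). The Il6st call ended without deleted replicate 4 or 5, and the Il10ra call without deleted replicate 4 or 6 or Hoxa9-Meis1 replicate 1 or 3 (limma adjusted p = 0.0506 to 0.0889 in these fits).

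**Figure D4:**
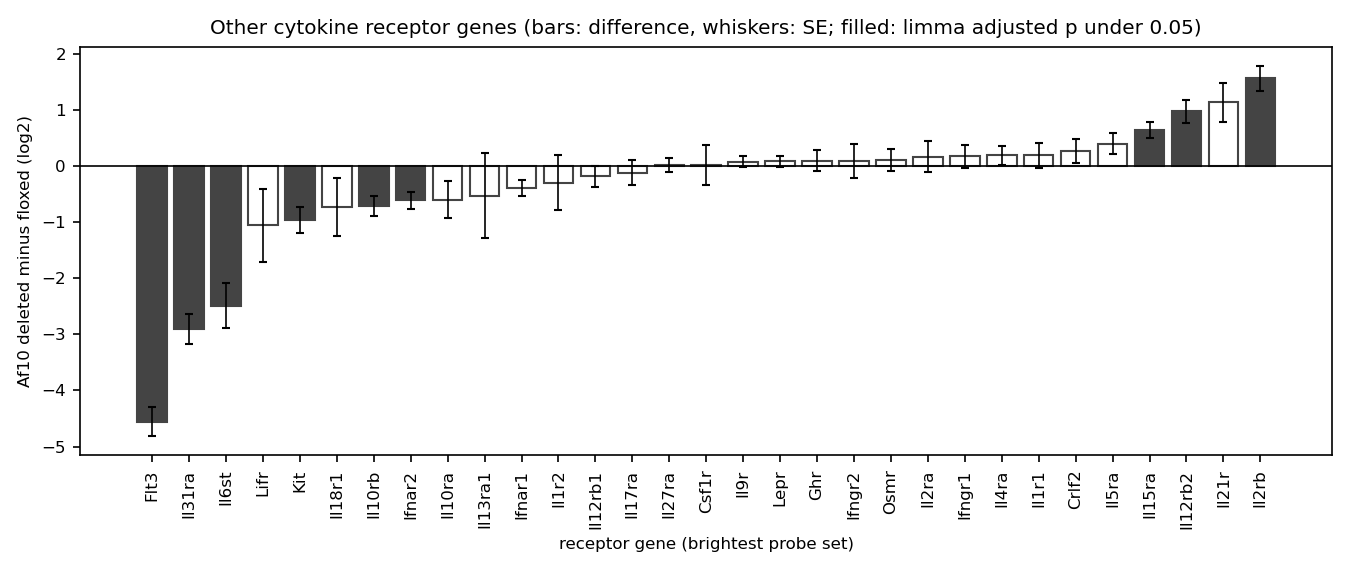
Bars give the deleted minus floxed difference (log2, vertical axis) of 31 cytokine receptor genes other than the members, ordered by size on the horizontal axis, with SE whiskers. The 9 filled bars are called at limma adjusted p under 0.05, from Flt3 at -4.56 to Il2rb at 1.56.

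Downstream of the receptors, 1 of 10 JAK and STAT genes passed in deleted against floxed leukemias. Stat4, which the IL-12 receptor activates, read 7.75, 7.88 and 7.67 in deleted, 4.64, 5.39 and 6.02 in floxed and 8.60, 8.22 and 7.43 in Hoxa9-Meis1 leukemias. It was higher in deleted than floxed leukemias by 2.42 (limma adjusted p = 0.00643) and lower in floxed than Hoxa9-Meis1 leukemias by 2.74 (limma adjusted p = 0.00288), with floxed replicate 4 in the background range. Stat5a and Stat5b, the main STATs below the GM-CSF and IL-3 receptors, differed by -0.13 and 0.29 in deleted minus floxed, neither past the threshold (limma adjusted p = 0.513 and 0.409).

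Of 21 inhibitors of the pathway, limma called 0 in deleted against floxed leukemias, and 4 were higher and 4 lower at an unadjusted p under 0.05, with a median difference of 0.06, the same to 2 decimals as over all genes. Against Hoxa9-Meis1 leukemias 0 were called in floxed (2 higher and 1 lower at an unadjusted p under 0.05) and 2 in deleted, where Cblb (-1.31, limma adjusted p = 0.0296) and Socs7 (-0.92, limma adjusted p = 0.0375) were lower. The Cblb call rests on 1 of its 3 probe sets, and the other 2 had the opposite sign. Cblb lost the call in 4 and Socs7 in 6 of the 9 fits without 1 array (limma adjusted p = 0.0501 to 0.114), Cblb without deleted replicate 5 or any Hoxa9-Meis1 replicate, and Socs7 without deleted replicate 4 or 6, floxed replicate 5 or 6, or Hoxa9-Meis1 replicate 2 or 3.

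Of 20 STAT target genes 1 fell in deleted against floxed leukemias, Ccnd1 (cyclin D1, -1.27, limma adjusted p = 0.0429), at 1 of its 3 probe sets, and its call stayed in only 1 of the 9 fits without 1 array, that without floxed replicate 6 (0.0613 to 0.15 in the rest). Against Hoxa9-Meis1 leukemias 1 target was higher and 4 lower in floxed leukemias. Pim2, a survival kinase induced by cytokines, was at 11.27 ± 0.10 in Hoxa9-Meis1 leukemias, and was lower by 3.37 in both floxed and deleted leukemias (limma adjusted p = 5.64e-05 and 3.5e-05). The other targets called in floxed minus Hoxa9-Meis1 were Osm, Junb (-1.74), Ccnd1 (1.65) and Myc (-1.20). Myc lost its call without deleted replicate 5, floxed replicate 5 or 6, or Hoxa9-Meis1 replicate 1 or 2 (limma adjusted p = 0.0509 to 0.131). Junb lost its call without floxed replicate 5 or 6 or Hoxa9-Meis1 replicate 1 or 3 (limma adjusted p = 0.0775 to 0.115). In deleted minus Hoxa9-Meis1 leukemias 1 target was higher, the survival gene Bcl2l1 (0.59, limma adjusted p = 0.0479), and 2 were lower, Pim2 and Osm. The Bcl2l1 call was kept in only 1 of the 9 fits without 1 array, that without floxed replicate 5. Limma called 3 of the 4 Bcl2l1 probe sets higher, and the 4 differences were 0.59 to 1.40.

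Among 16 transcription factors known to act on receptor genes of blood cells, of 17 listed, 1 fell in deleted against floxed leukemias, Irf8 (-1.88, limma adjusted p = 0.0174), a factor of monocyte and lymphoid development. Its call ended without deleted replicate 4 or 6 (limma adjusted p = 0.0541 and 0.0596). Spi1, which encodes PU.1, and Cebpa differed by 0.77 and 0.90 and did not pass (limma adjusted p = 0.108 and 0.0585). In floxed minus Hoxa9-Meis1 leukemias Cebpa was lower by 1.13 (limma adjusted p = 0.0203) and Gabpa, an ETS factor, higher by 0.73 (0.0233), and each lost its call in 4 of the 9 fits without 1 array (up to 0.0937), both of them without floxed replicate 5 or Hoxa9-Meis1 replicate 1, Cebpa also without floxed replicate 6 or Hoxa9-Meis1 replicate 3, and Gabpa without floxed replicate 4 or Hoxa9-Meis1 replicate 2. In deleted minus Hoxa9-Meis1 leukemias Irf8 (-1.87), Gata2 (-1.78) and Gata1 (-0.45) were lower and Klf1 (0.81) was higher. All 4 are blood lineage factors. Gata1 and Klf1 were dim, at 5.41 to 6.14 and 5.94 to 7.47 over the 9 arrays. The Gata2 call ended without deleted replicate 5 or Hoxa9-Meis1 replicate 1 or 2, and the Gata1 and Klf1 calls in 7 of the 9 fits without 1 array (limma adjusted p = 0.0535 to 0.144 over these fits).

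The remaining marker lists give the cell context of these values. Of 13 erythroid markers Rhd alone was called in deleted against floxed leukemias (-1.10, limma adjusted p = 0.00465), and Rhag was in the background range in all 3 groups. Of 11 neutrophil markers Cxcr2 rose (1.90, limma adjusted p = 0.00498) and none fell. Of 13 monocyte and macrophage markers F13a1 rose (1.06) and Ly86 (-2.93), Irf8 and Ccr2 (-1.71) fell, the last of them with its call lost in 6 of the 9 fits without 1 array (limma adjusted p = 0.0502 to 0.131; kept without deleted replicate 4 or Hoxa9-Meis1 replicate 1 or 3). Of 12 blast markers Cd34 (-3.57) and Kit fell and none rose. At an unadjusted limma p under 0.05, 2 of the 12 were higher and 2 lower, against 11.9% and 9.67% of all genes. The median difference of the blast list was 0.31, against 0.06 over all genes. Beside the Il3ra and Csf2rb calls against Hoxa9-Meis1 leukemias, monocyte marker sums were 13180 to 17960 in deleted, 18520 to 23630 in floxed and 21960 to 41460 in Hoxa9-Meis1 leukemias, and erythroid sums were 2896 to 3387, 2678 to 3143 and 3111 to 3425. In floxed minus Hoxa9-Meis1, the markers called higher and lower numbered 2 and 0 for B-lineage, 1 and 1 for T and NK, 1 and 0 for erythroid, 0 and 0 for neutrophil (0 with an unadjusted limma p under 0.05), 0 and 1 for monocyte and 1 and 1 for blast lists. In deleted minus Hoxa9-Meis1 they numbered 3 and 0, 4 and 0, 1 and 1, 2 and 0, 0 and 2, and 1 and 2 in the same order. The part of these cells in the receptor values was not tested.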

How the data were processed

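Biotinylated cRNA from 100 ng of total RNA was hybridised to 1-colour Affymetrix mouse arrays, per the labels' protocols. The authors deposited 1 intensity per probe set and array, made with RMA per the submitters' processing notes (background correction, quantile normalization across arrays and median polish). No source used here names the version or the chip definition. The values are on a linear scale, so log2(value + 1) was taken, which understates changes of dim probe sets. Quantile normalization removes a shift shared by most genes. Precision is limited by the number of arrays.

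All 9 arrays entered 1 group-means model over all 45101 probe sets (limma 3.58.1 in R 4.3.3, lmFit and eBayes, two-sided, Benjamini-Hochberg over all probe sets of a comparison, called under 0.05). A gene in a list is represented by its brightest probe set on average over the 9 arrays, and its p comes from the same fit. Gene names came from the platform annotation, with 1 symbol for 34958 probe sets. Every member is named. Of the pathway lists, all genes called in deleted minus floxed and up to 4 per list with the largest called differences elsewhere are named. Exceptions chosen after their values were seen are Stat5a, Stat5b, Spi1 and Myc. Of the marker lists, genes called in deleted minus floxed are named. The members and the lists were chosen with earlier results of these data known.

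The fitting code was tested on simulated data. Samples of the same number in the deleted and floxed groups did not deviate together (r = 0.05, 0.05 and 0.03), so numbers were not used as pairs. Alternatives were another pseudocount, a filter on low values, other fits, summaries, normalization and variance models, array weights, chromosome centring, a replicate block and arrays left out. Leaving each marker out of its list's sum was added after seeing the data.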

Additional observations from a re-analysis of the deposited data

How the results depend on the processing

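Of 36 member results, 8 were called and 3 of these held under every alternative run: Il3ra against Hoxa9-Meis1 in both MLL-AF9 groups, and Csf2rb 1455660_at in deleted minus Hoxa9-Meis1. Of 71 called results of list genes, 30 held throughout and 0 changed sign. In deleted minus floxed 1 member probe set was called. The count was 2 without probe sets of mean under 6 and with 1 probe set per gene (of 8), 3 with a trended and robust eBayes, 0 with only these groups in the fit, 0 with the replicate block, and 0 to 2 with 1 array left out. At a count of 1, the call was Csf2rb, higher, in place of Il7r with a pseudocount of 32 or with probe sets averaged per gene, and Csf2ra after chromosome centring. Il7r 1448575_at had a limma adjusted p of 0.148 with the replicate block, 0.109 with only these groups, 0.0855 with a pseudocount of 32, 0.0678 with the mean of probe sets and 0.0504 after chromosome centring. The cause was not tested. In floxed minus Hoxa9-Meis1 the count of 4 became 1 with only these groups (Il3ra), 2 with the mean of probe sets, 2 without deleted replicate 6 and floxed replicate 5, and 1 to 2 with 1 array left out. In deleted minus Hoxa9-Meis1 it was 3, and 2 to 4 elsewhere. Over all probe sets, 2779 were called in deleted minus floxed, 1735 with only these groups, 1180 with the replicate block, 1060 without deleted replicate 6 and floxed replicate 5, and 1344 to 2718 with 1 array left out.

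In 8 uncalled member results the sign changed. With 1 array left out the ranges were -0.031 to 0.16 for Csf2rb 1421326_at and -0.13 to 0.30 for Csf2rb2 in floxed minus Hoxa9-Meis1, and -0.27 to 0.077 for Il3ra in deleted minus floxed. In deleted minus Hoxa9-Meis1 they were -0.039 to 0.042 for Epor, -0.28 to 0.30 for Il6ra 1422270_a_at, -0.11 to 0.44 for Il6ra 1452416_at, -0.26 to 0.17 for Il7r 1448575_at and -0.038 to 0.16 for Il7r 1448576_at. A second quantile normalization gave -0.0081 for Csf2rb2, 0.029 for Il3ra and -0.021 for Il6ra 1452416_at. Array weights gave -0.0094 for Csf2rb2, 0.16 for Il6ra 1422270_a_at and -0.020 for Il7r 1448576_at. Without deleted replicate 6 and floxed replicate 5 the values were 0.12 for Il6ra 1422270_a_at and -0.027 for Il7r 1448576_at.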
